A study of Homo sapiens with 18 samples.

Results

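The CpGs described here were chosen by their coverage in reduced representation bisulfite sequencing (RRBS), a method that reads the methylation of single CpGs in the CpG-rich part of the genome. They are the autosomal CpGs covered by at least 300 reads in each of the 3 RRBS libraries. There were 559 of them, 0.0260% of the 2147757 autosomal CpGs listed in all 3 libraries. In at least 1 library, 3744962 autosomal CpGs were listed. The libraries came from genomic DNA of 3 established human cancer cell lines, HCT15 (colon) and DU145 and PC3 (both prostate), all untreated, with 1 RRBS library per line. DNA of each line was also captured with each of 5 kits that pull down methylated fragments with a methyl-CpG binding domain (MBD), which gave 15 MBD-seq libraries. MethylMagnet uses the domain of MBD2b, MethylCollector also MBD2b, MethylCollector Ultra MBD2b together with MBD3L1 and MethylMiner MBD2. Each kit received 200 ng of DNA per line, so a kit has 3 libraries, 1 from each line.

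Some of the sequences to which such CpGs belong are repeated many times in a human genome, mostly in places that a reference assembly leaves out. Ribosomal DNA lies in tandem arrays on the short arms of the acrocentric chromosomes, and each unit holds a 45S transcript, from which the 18S, 5.8S and 28S ribosomal RNAs are cut, and a long spacer. Diverged copies of parts of the unit are scattered over other chromosomes. Satellites built from the pentamer GGAAT fill large blocks next to the centromeres of several chromosomes, including 10 and 16. They are heavily methylated in most normal tissues and often lose methylation in cancer. D4Z4 repeats, which hold the DUX4 gene, and nuclear copies of mitochondrial DNA are further examples. A read from any copy may be placed on the single copy that the assembly holds.

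Several features of the files limit what follows. The RRBS file of PC3 lists no CpG on chromosome 22 and none on chromosome 21 before position 10704403 or after 42485481, so no CpG there could be a member. In particular, 165 CpGs of a ribosomal-like stretch at chr21:9825539-9827508 were covered by at least 300 reads in HCT15 and DU145 and missed the rule for that reason alone. HCT15 set the lowest coverage for 456 of the members, and with HCT15 left out of the rule 1185 CpGs would have qualified. Library sizes differed widely, from 9876 to 7163312 autosomal fragments in MBD-seq and from 71444383 to 128307477 autosomal CpG reads in RRBS. The cell line of each MBD-seq library was checked at CpGs that RRBS found methylated in that line only. In 12 of 15 libraries the depth relative to the library mean was highest at the CpGs of the line named. None of the 3 MethylMiner libraries met this check. Their depth differed little between CpGs of high and low methylation, as given further down, so the check cannot tell their line. The assignment of these libraries to a line rests on the labels alone. Values below that rest on them are also given without them where a test is run.

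The 559 members formed 91 blocks when neighbours at most 1000 bp apart were joined. Together the blocks span 31320 bp, and the longest has 3765 bp. Single CpGs made up 18 blocks, and 14 blocks of at least 10 members held 284 members. Members were found on 18 of the 22 autosomes. Chromosome 16 had 108 in 22 blocks, chromosome 10 had 83, chromosome 20 had 55, chromosome 1 had 51 and chromosome 7 had 50. In the GENCODE annotation 330 were intergenic, 129 intronic and 100 exonic.

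By sequence the members fall into 5 classes, which were set up after the data had been seen and serve to describe them. The 45S transcript class holds 124 members in 8 blocks that align to the ribosomal transcript at between 81.5% and 98.5% identity. A further 58 members in 10 blocks align to the same ribosomal contig of the assembly outside the transcript, at between 80.9% and 87.3% identity. The pentamer satellite class holds 168 members in 28 blocks, in which GGAAT or its reverse complement fills at least 10% of the 100 bp on each side of the CpG. A block of 3 members is a nuclear copy of mitochondrial DNA with 98.5% identity. The remaining 206 members in 44 blocks are called other below.

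Sequences of 7 stretches show what the classes look like. All are read from the plus strand of GRCh37, with the CG of each member in capitals and every other base, other CpGs included, in lower case. The first pair are copies of 45S transcribed spacer, in MIR663AHG (chr20:26190005-26190199) and in an intron of PMF1 (chr1:156186356-156186587). The next pair are pentamer satellite, the stretch with the highest MethylCap depth on chromosome 10 (chr10:42599586-42599827) and the one with the largest range between lines on chromosome 16 (chr16:46394319-46394444). The fifth comes from the largest block among the other sequences (chr7:56439294-56439479). The last pair are the mitochondrial copy (chr1:567887-567970) and a short satellite stretch with fixed levels (chr10:42664228-42664255).
MIR663AHG copy: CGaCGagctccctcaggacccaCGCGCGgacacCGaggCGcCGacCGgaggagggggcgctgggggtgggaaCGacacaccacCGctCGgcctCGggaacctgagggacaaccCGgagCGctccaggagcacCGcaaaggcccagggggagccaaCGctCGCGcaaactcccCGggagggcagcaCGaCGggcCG
PMF1 copy: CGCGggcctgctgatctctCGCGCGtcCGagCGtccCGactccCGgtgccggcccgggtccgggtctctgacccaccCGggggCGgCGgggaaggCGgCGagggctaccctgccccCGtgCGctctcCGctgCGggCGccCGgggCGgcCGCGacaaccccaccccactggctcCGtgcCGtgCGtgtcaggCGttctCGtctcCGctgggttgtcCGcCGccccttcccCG
chromosome 10 satellite: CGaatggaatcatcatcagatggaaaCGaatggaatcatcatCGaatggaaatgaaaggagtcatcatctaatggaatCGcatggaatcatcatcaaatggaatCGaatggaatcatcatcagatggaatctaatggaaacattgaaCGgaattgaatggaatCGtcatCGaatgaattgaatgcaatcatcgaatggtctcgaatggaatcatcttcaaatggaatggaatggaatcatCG
chromosome 16 satellite: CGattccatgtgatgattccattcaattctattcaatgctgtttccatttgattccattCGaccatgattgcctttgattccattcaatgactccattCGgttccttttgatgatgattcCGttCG
chromosome 7 repeat: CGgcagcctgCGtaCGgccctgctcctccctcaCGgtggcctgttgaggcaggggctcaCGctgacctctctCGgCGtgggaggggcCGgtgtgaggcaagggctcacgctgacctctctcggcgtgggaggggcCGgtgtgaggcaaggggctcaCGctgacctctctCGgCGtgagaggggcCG
mitochondrial copy: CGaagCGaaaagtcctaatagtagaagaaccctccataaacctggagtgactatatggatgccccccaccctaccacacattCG
chromosome 10 fixed levels: CGaatggaattgaaCGgaatcatcatCG
The PMF1 stretch of 232 bp has 35 CpGs, of which 32 were members, and no pentamer. The chromosome 10 satellite of 242 bp has 11 CpGs and 13 pentamers.

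Features that the rule did not use were counted for members and for 953190 comparison CpGs, which had coverage of at least 20 in all 3 lines and below 300 in at least 1. Within 1000000 bp of an assembly gap of at least 10000 bp lay 54.03% of the members and 17.3% of the comparison CpGs. The 50 bases around the CpG occurred more than once in the assembly for 36.4% of the members with a count and 5.28% of the 47657 comparison CpGs examined. After in-silico conversion of every C into T, the C of a CpG included, these shares were 62.0% and 14.5%. Pentamers filled at least 10% of the surroundings for 30.1% of the members and 0.0950% of the comparison CpGs. A member had a median of 11 CpGs within 100 bp on each side and a GC content of 59.2%, against 13 and 64.7% for comparison CpGs. The site CCGG, at which the enzyme MspI of RRBS cuts, covered 15.0% of the members and 28.02% of the comparison CpGs. For 355 members the 50 bases were present in the assembly only once, and the assembly leaves out most of the satellite and ribosomal copies.

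Coverage is a description here, since it chose the members. The median was 854 reads in HCT15, 2124 in DU145 and 1674 in PC3, against 36, 66 and 47 for the comparison CpGs. The members took 1.98% of all autosomal CpG reads in HCT15, 3.27% in DU145 and 2.64% in PC3. The highest coverage in all 3 lines was in a satellite block of chromosome 10 (chr10:42389294-42391339), with 35083 reads in HCT15, 174482 in DU145 and 119346 in PC3. The 30 members just inside the rule, with a lowest coverage of at least 300 and below 320, had mean methylation levels of 61.8%, 72.5% and 46.0% in HCT15, DU145 and PC3. The 47 CpGs just outside it, with at least 280 and below 300, had 67.6%, 69.3% and 49.9%. At 300 reads, the 95% Wilson interval of a level of 50% reaches 5.62 percentage points to each side. It covers counting error only, since RRBS reads are not independent molecules.

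The methylation level of members was highest in DU145 and lowest in PC3. Over all 559 members the mean level was 64.2% ± 27.7 in HCT15, 74.0% ± 26.9 in DU145 and 49.5% ± 31.0 in PC3, where the SD is over CpGs. Over the comparison CpGs it was 58.8%, 58.3% and 53.1%, so the order of HCT15 and DU145 was the opposite one. DU145 was above HCT15 at 462 members and below it at 95, above PC3 at 514 and below it at 44. HCT15 was above PC3 at 471 members and below it at 87. The first line of each pair was thus higher at 82.6%, 91.9% and 84.3% of the members. Over the comparison CpGs these shares were 47.9%, 51.8% and 45.4%. A CpG with equal levels counts as not higher. Among the members 2, 1 and 1 were equal, and for the comparison CpGs the number is not given. Their shares therefore do not tell which line was higher at the rest. The mean differences over the comparison CpGs were -0.48, 5.24 and 5.71 percentage points. With 1 RRBS library per line there is no test between lines, and CpGs of a block often share reads.

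A difference of at least 20 percentage points was counted for each pair of lines, beside the same share over all 953749 autosomal CpGs with coverage of at least 20 in all 3 lines. DU145 was above HCT15 by that much at 110 members, or 19.7%, against 9.88% of all CpGs. The opposite held at 3 members, against 10.3% of all CpGs. DU145 exceeded PC3 at 228 members, or 40.8%, against 15.2%. PC3 exceeded DU145 at 0 members, against 5.2%. HCT15 exceeded PC3 at 151 members, or 27.0%, against 16.3%, and PC3 exceeded HCT15 at 1 member, against 6.15%. Large differences were thus more frequent than over all CpGs in the directions of DU145 above HCT15 and of either line above PC3, and scarcer in the opposite directions. At CpGs of low coverage a difference of this size arises more easily from counting error. With coverage of at least 100 in all 3 lines, the 6 shares over all CpGs were 5.71%, 5.07%, 8.09%, 3.24%, 8.13% and 3.7996%, in the same order.

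The 4 members with a difference against these directions are named here after their values were seen. At chr20:26190137, in the MIR663AHG block, the level was 67.1% in HCT15, 46.8% in DU145 and 56.7% in PC3. Within 1000 bp of the start of RNA5SP283, a pseudogene of the 5S ribosomal RNA, the CpG at chr9:66458486 had 45.2%, 22.9% and 38.7%. At chr9:66494187, close to the pseudogene PTGER4P2, the level was 83.1% in HCT15, 32.2% in DU145 and 36.4% in PC3. At chr20:46524092 it was 0.59% in HCT15, 29.1% in DU145 and 38.4% in PC3.

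**Figure D1:**
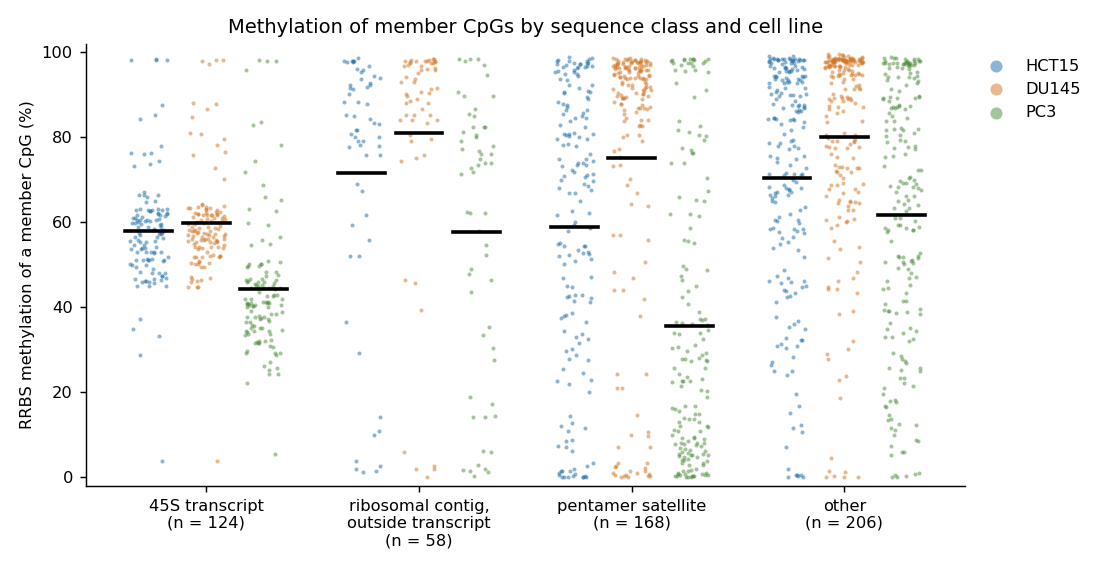
RRBS methylation level of each member CpG (vertical axis, %) in 4 sequence classes (horizontal axis) and 3 cell lines (colour), with black bars at the class means. The 45S transcript class lies in a band around means of 58.0%, 59.8% and 44.3%, the satellite class reaches from near 0% to near 100%, and PC3 has the lowest mean in each class shown.

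Ribosomal copies had intermediate levels with little scatter. The 124 CpGs of the 45S transcript class had 58.0% ± 12.9 in HCT15, 59.8% ± 12.1 in DU145 and 44.3% ± 15.5 in PC3 (SD over CpGs). The 11 CpGs like 18S had means of 58.5%, 62.1% and 49.8%, the 33 like 28S 57.3%, 61.4% and 41.4%, and the 80 like the transcribed spacer 58.2%, 58.8% and 44.7%. The parts of the transcript therefore differed by less than 1 SD over CpGs in every line. Between DU145 and HCT15 only 2 CpGs of this class were higher in DU145 by at least 20 percentage points, which is 1.61% of the class and below the 9.88% of all CpGs. DU145 was above PC3 by that much at 33 CpGs, or 26.6%, against 15.2% of all CpGs. HCT15 was above PC3 at 20, or 16.1%, next to 16.3% of all CpGs. The aligned place of the transcript is also a CpG at 123 of the 124 CpGs. The exception, where the transcript has CA in place of CG, had 3.76%, 3.797% and 5.39%.

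The block with the most members lies in MIR663AHG, the host gene of the microRNA miR-663a, in the pericentromeric part of chromosome 20 (chr20:26188685-26190199). Its 48 members, 34 of them exonic and 14 intronic, align to transcribed spacer at 88.6% identity. Their mean level was 57.3% ± 15.5 in HCT15, 57.4% ± 14.8 in DU145 and 44.7% ± 17.9 in PC3. The block in an intron of PMF1, which encodes a kinetochore protein, has 32 members at 96.5% identity to the spacer. Its levels were 59.6% ± 9.72, 61.1% ± 8.63 and 44.8% ± 11.6, within 1 SD of those of the MIR663AHG block in every line. An intron of DLG2, which encodes a synaptic scaffold protein, holds 12 members like 28S at 88.8% identity (chr11:85195031-85195210). There the level was 61.7% ± 10.6 in HCT15, 65.9% ± 9.20 in DU145 and 46.4% ± 15.5 in PC3. As many members, 12 like 28S at 95.2% identity, lie at chr12:127650489-127650616, with 57.0% ± 1.45, 59.7% ± 0.95 and 40.9% ± 2.89.

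Members that align to the ribosomal contig outside the transcript were more methylated. Their mean level was 71.7% ± 30.5 in HCT15, 81.1% ± 27.3 in DU145 and 57.7% ± 32.1 in PC3. The contig also has a CpG at the aligned place for 43 of the 58.

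Satellite CpGs showed the widest separation of the lines. Over the 168 members the mean level was 58.8% ± 32.1 in HCT15, 75.1% ± 32.7 in DU145 and 35.7% ± 33.4 in PC3. At least 80% methylation was reached by 59 members in HCT15, 120 in DU145 and 29 in PC3. A level of at most 20% was found at 27, 23 and 74. DU145 was above HCT15 by at least 20 percentage points at 63 members (37.5%), against 9.88% of all CpGs. By that much it was above PC3 at 104 (61.9%), against 15.2%, and HCT15 was above PC3 at 82 (48.8%), against 16.3%. None of the 168 differed by that much in the opposite directions, against 10.3%, 5.2% and 6.15% of all CpGs.

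Of these members, 139 lie in the pericentromeric stretches of chromosomes 10 and 16. On chromosome 16 (chr16:46385824-46443906), 68 members had means of 57.6% ± 29.4 in HCT15, 85.5% ± 19.6 in DU145 and 38.5% ± 36.0 in PC3. DU145 was above HCT15 at 65 of them and above PC3 at 62. On chromosome 10 (chr10:42363379-42664255), 71 members had 63.0% ± 30.3, 71.0% ± 35.0 and 35.6% ± 30.3, with DU145 above HCT15 at 53 and above PC3 at 69. PC3 was thus about equally low in both stretches, while the gap between DU145 and HCT15 was 27.9 percentage points on chromosome 16 and 8.02 on chromosome 10. The other 29 satellite members are spread over 6 stretches. At chr2:92269323-92269376, 3 members had means of 77.7%, 94.7% and 38.3%, and at chr3:196625711-196625777, in the SUMO protease gene SENP5, 4 members had 79.2%, 92.9% and 35.8%. The stretch chr16:33885208-34192486, with 14 satellite members, had 51.6% ± 46.7, 55.3% ± 47.4 and 35.9% ± 41.9 at these.

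**Figure D2:**
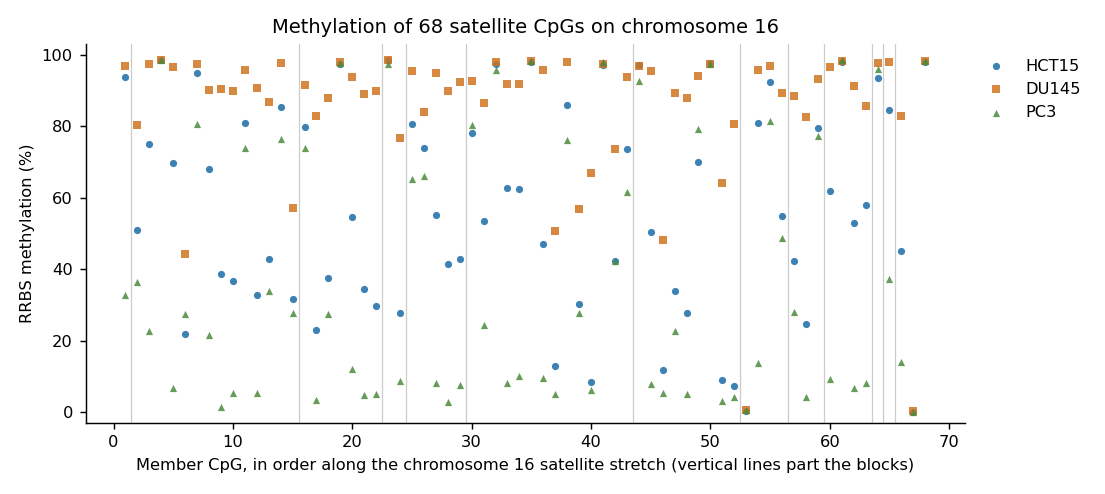
RRBS methylation level (vertical axis, %) of the 68 satellite member CpGs of chromosome 16 in their order along the chromosome (horizontal axis), with a symbol for each cell line and vertical lines between blocks. DU145 lies near the top for most CpGs and is above HCT15 at 65 and above PC3 at 62 of the 68, while PC3 has many CpGs close to 0%.

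Within a block the levels changed from CpG to CpG. In the chromosome 16 stretch printed above, the 5 members in order had 80.5%, 74.0%, 55.2%, 41.5% and 42.8% in HCT15. In DU145 they had 95.4%, 83.9%, 94.99%, 89.8% and 92.5%. In PC3 they had 65.3%, 65.9%, 8.15%, 2.82% and 7.66%. All 5 were highest in DU145 and lowest in PC3, and the range of the block means, from 29.97% to 91.3%, was the largest of all blocks with at least 5 members. Next in that order came chr16:46391206-46391966, whose 7 members had means of 50.9%, 90.4% and 32.1%, and chr16:46388542-46389720, whose 14 members had 59.1%, 86.6% and 37.02%. Another chromosome 16 block with many members (chr16:46399521-46402119, 14 members) had 60.7%, 85.1% and 45.9%.

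On chromosome 10 the block with the highest coverage had 12 members with means of 62.9% ± 38.5 in HCT15, 63.9% ± 42.8 in DU145 and 41.7% ± 37.3 in PC3. The 27 members of chr10:42383249-42386163 had 62.0%, 72.4% and 32.8%, and the 16 of chr10:42393100-42396864 had 69.2%, 81.2% and 37.3%. The 9 members of the stretch printed above had 69.9% ± 27.5, 78.6% ± 27.6 and 32.4% ± 25.3. Its most covered CpG, at chr10:42599664, had 46.9% of 9691 reads methylated in HCT15, 37.9% of 40402 in DU145 and 6.02% of 27629 in PC3.

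**Figure D3:**
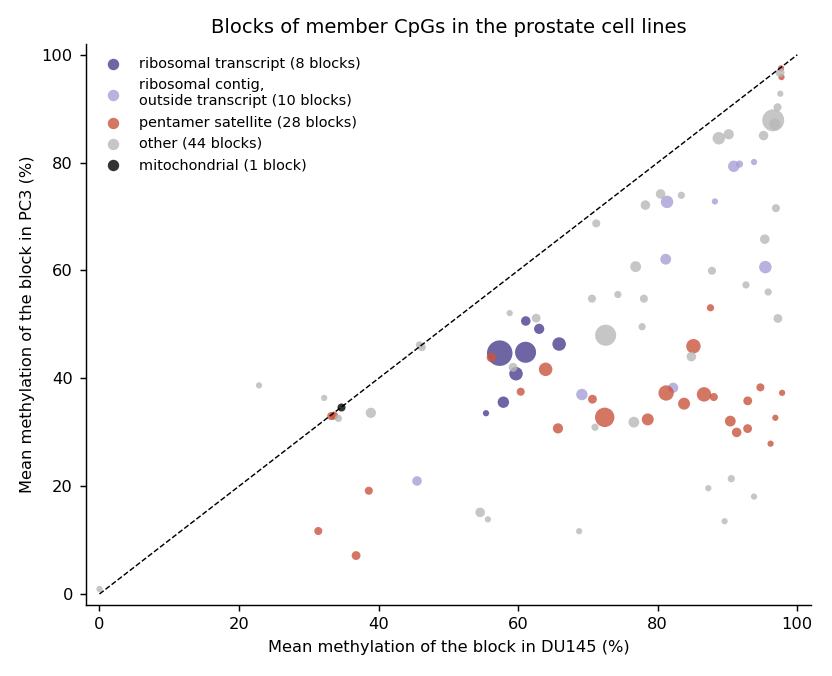
Mean methylation level of each of the 91 blocks in DU145 (horizontal axis, %) and PC3 (vertical axis, %), with the area of a point growing with its number of members and the colour giving the sequence class; the dashed line marks equal levels. Satellite blocks range from near the line to far below it, at 29.97% to 45.9% in PC3 for the 4 chromosome 16 blocks named in the text, and the large 45S transcript blocks sit near 60% and 45%.

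Among the other sequences the mean level was 70.5% ± 27.2 in HCT15, 80.1% ± 23.9 in DU145 and 61.8% ± 30.004 in PC3. The largest block of these lies between genes near CICP8, a pseudogene of the repressor capicua (chr7:56438180-56441315). Its 35 members had 89.7% ± 10.1, 96.6% ± 2.99 and 87.8% ± 9.83, and its lines differed by at most 8.71 percentage points in the mean. The next has 32 members in and beside DUX4L26 and RPL23AP49, pseudogenes of the transcription factor DUX4 and of ribosomal protein L23a (chr3:75718068-75720170). Its levels were 61.3% ± 16.8 in HCT15, 72.5% ± 12.5 in DU145 and 48.0% ± 18.5 in PC3.

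A list of multi-copy gene families was compared with the members, counting genes that hold a member or lie within 1000 bp of one. Of 25 DUX4 genes and pseudogenes, 3 were found (DUX4L13, DUX4L26 and DUX4L50), with 46 members. The 7 members in DUX4L13, at chr10:135491039-135491077, had means of 78.2%, 76.8% and 60.7% in HCT15, DU145 and PC3. Of 497 genes and pseudogenes of 5S ribosomal RNA, 2 were found (RNA5SP283 and RNA5SP425), with 2 members. Of 220 genes of pericentromeric and segmental duplication families, ANKRD30BL, FAM157C and FAM27C were found, with 14 members. The 3 members in FAM157C had 94.5%, 97.2% and 90.3%, and the 2 in FAM27C had 32.4%, 90.5% and 21.4%. No member was found for 1561 small nuclear RNA genes and pseudogenes, 30 USP17L genes, 59 genes of subtelomeric families, 92 histone genes or 60 clustered protocadherin genes.

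Levels between 20% and 80% were frequent among the members. In HCT15, 307 members (54.9%) had such a level, in DU145 217 (38.8%) and in PC3 312 (55.8%), against 23.4%, 20.9% and 26.6% of the comparison CpGs. Other members stayed at an extreme in every line. At most 5% methylation in all 3 lines was measured at 28 members in 21 blocks, and at least 95% at 59 members in 37 blocks. Neither these counts nor that of the pairs below was made for the comparison CpGs. In HCT15, DU145 and PC3, at most 20% held at 28.8%, 31.2% and 33.7% of these, against 9.30%, 6.98% and 20.8% of members. At least 80% held at 47.8%, 47.9% and 39.6% of these, against 35.8%, 54.2% and 23.4% of members. Both extremes can stand side by side. Of 377 pairs of neighbouring members within 50 bp, 11 pairs in 10 blocks changed by at least 80 percentage points between the neighbours in all 3 lines.

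The mitochondrial copy is such a case. Its first member had 97.01% in HCT15, 98.6% in DU145 and 98.3% in PC3. The CpG 5 bp further on had 0.54%, 1.11% and 0.25%. The third member had 2.18%, 4.33% and 5.69%. In the chromosome 10 stretch with fixed levels, the members had 2.57%, 0% and 96.5% in HCT15. They had 2.23%, 0.34% and 98.3% in DU145, and 1.04%, 0.19% and 98.0% in PC3. On chromosome 16, the CpG at chr16:46443879 had 0.14%, 0.17% and 0.14%, from 9085, 31826 and 25655 reads. Its neighbour at chr16:46443905 had 98.0%, 98.2% and 98.4%, from 4540, 15900 and 12819 reads. The 3 lines thus differed by less than 5 percentage points at each of these CpGs. RRBS reads a T as unmethylated whether it came from an unmethylated C or from a T in the DNA, and which of these holds at these CpGs was not tested.

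In MBD-seq the depth of uniquely mapped, non-duplicate fragments was read at the same 559 CpGs and divided by the mean depth over the autosomes of the library, called relative depth below. A fragment that fits several places equally well is absent from this depth. With MethylMagnet, the relative depth at members was 428 for HCT15, 926 for DU145 and 275 for PC3. It was 201, 398 and 178 with MethylCollector, and 101.7, 148 and 70.9 with MethylCollector Ultra. With MethylCap it was 31.0, 80.3 and 40.8, and with MethylMiner 11.3, 27.7 and 26.5. In this order the kits fell in each of the 3 lines, and DU145 had the highest value with every kit. Both orders rested in part on 1 block in PMF1, as given further down. As a median over members, the means over lines were 0, 19.4, 23.9, 16.0 and 7.27 in the same order of kits, so that MethylMagnet came last. Relative to the mean depth at CpGs with RRBS coverage of at least 20, they were 21.2, 12.5, 7.94, 8.10 and 7.14, with MethylCap above MethylCollector Ultra. The means over the lines were 543 ± 340, 259 ± 121, 107 ± 39.0, 50.7 ± 26.1 and 21.8 ± 9.11 (SD, n = 3). Without DU145 the mean of MethylMagnet was 351.

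The kits with the higher relative depth mostly had the smaller libraries, with an exception in PC3, where MethylMagnet had 236128 autosomal fragments and MethylCollector 83485. MethylMagnet had 9876 in DU145 and 58734 in HCT15, and MethylMiner had 2894727 and 7163312 in these lines and 2033431 in PC3. In the smaller libraries the high values came from few CpGs. With MethylMagnet in DU145, 53 of the 559 members (9.48%) were under a fragment, and the mean depth at members was 0.53 fragments. With MethylCap in HCT15 it was 477 members (85.3%) and a mean depth of 8.65. The part of library size in the differences between kits was not tested, and a depth of 0 allows up to 3 fragments.

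Of the variation in log2 relative depth at all members, measured as the sum of squares, 88.9% lay between kits and 7.96% between cell lines (exact permutation of kits within lines, 14400 relabellings, p = 6.94e-05, the smallest these can give, and 0.000104 after Benjamini-Hochberg adjustment over 3 tests). In the MIR663AHG block the share of the kits was 93.7% (exact permutation test, p = 0.000347, adjusted p = 0.000347). For the 511 members outside it, it was 84.9% (exact permutation test, p = 6.94e-05, adjusted p = 0.000104). All 3 tests are two-sided. Without the MethylMiner libraries the shares were 83.1%, 91.8% and 76.6% (exact permutation test, p = 0.00174, 0.00521 and 0.00174). With depth relative to CpGs with RRBS coverage of at least 20 in place of the autosomes, the shares fell to 55.8%, 76.1% and 44.2% (exact permutation test, p = 0.00319, 0.00347 and 0.0134). The kits thus differed beyond the spread between lines, by an amount that depends on the reference depth.

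The comparison CpGs had a relative depth of 31.3, 25.7 and 18.6 with MethylMagnet in HCT15, DU145 and PC3, and of 2.23, 3.14 and 3.48 with MethylMiner. In each of the 15 libraries the members lay above them, by a ratio between 4.97 (MethylCap, HCT15) and 35.9 (MethylMagnet, DU145). The log2 ratio was 3.30 ± 0.77 (SD, n = 15, above 0 in 15 of 15 libraries, exact sign-flip permutation test, two-sided, p = 6.1e-05, the smallest 15 libraries can give). Libraries of a line share their DNA, which this p ignores. With the signs flipped for the 5 libraries of a line together, an alternative added after seeing the data, only 8 patterns exist, and the exact permutation test gives p = 0.25, the smallest it can. Without the MethylMiner libraries the log2 ratio was 3.43 (12 of 12, exact sign-flip permutation test, p = 0.000488). Among CpGs with at least 80% methylation in the line of the library, it was 1.80, with ratios between 2.14 and 8.71.

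**Figure D4:**
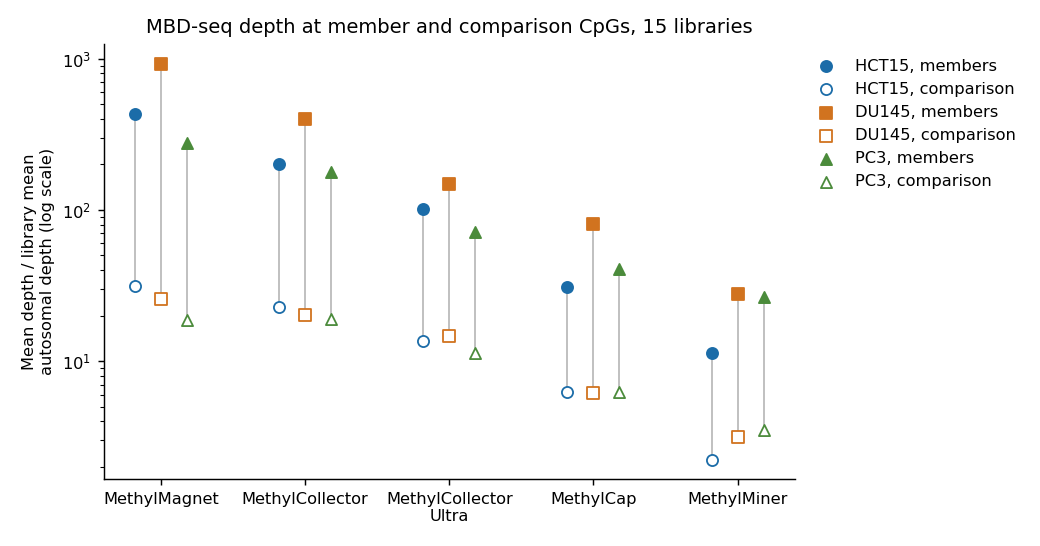
Relative depth (vertical axis, log scale, mean depth divided by the mean autosomal depth of the library) at the 559 members (filled) and the comparison CpGs (open) in the 15 MBD-seq libraries, by kit (horizontal axis) and cell line (symbol and colour). Members lie above the comparison CpGs in every library and fall from 275 to 926 with MethylMagnet to 11.3 to 27.7 with MethylMiner.

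A single block weighed heavily in the kits of low yield. The 32 members in PMF1 had a relative depth of 5057 for HCT15, 14431 for DU145 and 2773 for PC3 with MethylMagnet, of 1704, 4339 and 972 with MethylCollector and of 571, 1569 and 416 with MethylCollector Ultra. With MethylCap it was 68.3, 260 and 154, and with MethylMiner 30.5, 83.5 and 82.3. Without this block, an alternative added after its values were seen, the mean relative depth at members fell to 125 with MethylMagnet, 133 with MethylCollector and 61.8 with MethylCollector Ultra, and the first pair of kits changed places in DU145 and PC3. With MethylMagnet DU145 was then the lowest line, at 105 against 146 in HCT15 and 124 in PC3, and with MethylCollector Ultra HCT15, at 73.2, was above DU145. In DU145 MethylCap, at 69.3, was also above MethylCollector Ultra, at 62.2. The log2 ratio of members to comparison CpGs was 2.51 without the block, with ratios between 4.09 and 11.2.

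The classes shared the depth differently from kit to kit. The relative depth of the 45S transcript members fell from 2222 ± 1500 with MethylMagnet over 934 ± 557, 296 ± 163 and 68.3 ± 34.0 to 27.4 ± 10.3 with MethylMiner. That of the satellite members was 46.6 ± 40.2, 43.99 ± 23.7, 60.5 ± 21.8, 76.2 ± 67.4 and 42.1 ± 22.3 in the same order (SD, n = 3 each), and there the kits overlapped. In HCT15, DU145 and PC3 the mean depth at satellite members was 0.083, 0.054 and 0.32 fragments with MethylMagnet. It was 0.60, 0.12 and 0.15 with MethylCollector and 2.36, 0.16 and 1.625 with MethylCollector Ultra. The satellite values of these kits, and the ratios to them below, thus rest on few fragments. The 45S transcript class, 22.2% of the members, held 89.1% ± 4.18 of the summed member depth with MethylMagnet, 77.1% ± 9.43 with MethylCollector and 59.1% ± 11.3 with MethylCollector Ultra. With MethylCap it held 30.1% ± 8.96 and with MethylMiner 28.6% ± 4.15 (SD, n = 3 each). The satellite class, 30.1% of the members, held 2.40% ± 0.71 with MethylMagnet, 5.00% ± 0.50 with MethylCollector, 17.1% ± 1.27 with MethylCollector Ultra, 40.02% ± 15.2 with MethylCap and 55.1% ± 9.92 with MethylMiner. The ratio of the relative depth of 45S transcript to satellite members was 53.3 ± 16.2, 20.95 ± 2.19, 4.69 ± 0.86, 1.12 ± 0.53 and 0.73 ± 0.23 in the same order of kits. The values of each of MethylMagnet, MethylCollector and MethylCollector Ultra lay apart from those of all other kits in the 3 lines, and those of MethylCap, from 0.65 to 1.70, overlapped those of MethylMiner, from 0.52 to 0.97. Here too the PMF1 block weighed heavily. Without it the 92 remaining members of the 45S transcript class had a relative depth of 414 ± 130 with MethylMagnet, 445 ± 173 with MethylCollector, 102.9 ± 12.3 with MethylCollector Ultra, 36.03 ± 14.6 with MethylCap and 14.1 ± 5.34 with MethylMiner, and the first pair no longer differed beyond their spread. Their ratio to the satellite members was 14.9 ± 10.5, 11.2 ± 5.14, 1.82 ± 0.52, 0.65 ± 0.39 and 0.42 ± 0.24, and MethylMagnet, from 2.84 to 21.1, then overlapped MethylCollector, from 7.76 to 17.1. Their share of the summed member depth was 57.1% ± 12.7, 57.0% ± 12.8, 29.3% ± 2.10, 15.4% ± 7.11 and 14.1% ± 5.68. No test was made, since the classes were set up after the data had been seen.

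**Figure D5:**
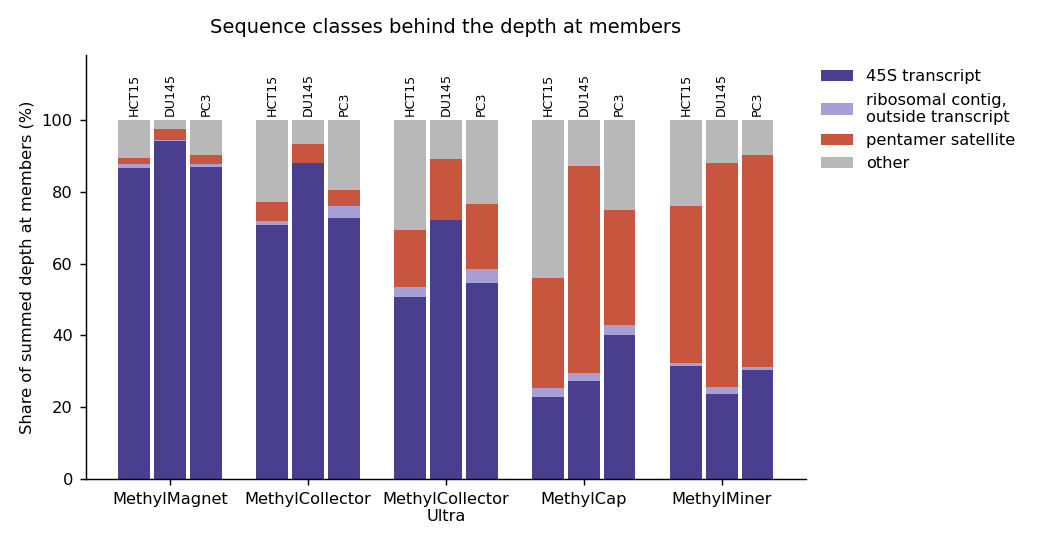
Share of the summed depth at all members (vertical axis, %) that lies at 45S transcript, other ribosomal contig, pentamer satellite and other members, in each of the 15 MBD-seq libraries, ordered by kit with the cell line above each bar. The 45S share falls from a mean of 89.1% with MethylMagnet to 28.6% with MethylMiner, and the satellite share rises from 2.40% to 55.1%.

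The MIR663AHG block had a relative depth of 824, 506 and 853 in HCT15, DU145 and PC3 with MethylMagnet and of 429, 956 and 770 with MethylCollector. These 2 kits overlapped there, with means of 728 ± 192 and 718 ± 267 (SD, n = 3). MethylCollector Ultra had 167, 198 and 144, MethylCap 20.5, 32.0 and 81.4 and MethylMiner 16.9, 14.3 and 38.2. The DU145 values rest on few fragments, with a mean depth of 0.29, 1.60, 0.375, 1.71 and 2.60 in this order of kits. These depths, and the 2.96 of MethylMagnet in HCT15, are below the 3 fragments that a depth of 0 allows. The DLG2 block, with a similar methylation level and 88.8% identity to 28S, had a relative depth of 0 in all 3 MethylMagnet libraries, and of 8.92, 4.56 and 0 with MethylMiner. Ribosomal copies of like methylation thus differed widely in depth.

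With the kits of high yield, MethylCap and MethylMiner, the block with the highest depth was a satellite. The 9 members of the chromosome 10 stretch printed above had a relative depth of 189, 769 and 361 for HCT15, DU145 and PC3 with MethylCap, the highest mean of any block with at least 5 members, and of 100.5, 247 and 275 with MethylMiner, again the highest mean. Next with MethylCap, after the PMF1 block, came chr16:46391206-46391966, with 37.9, 332 and 21.5. Next with MethylMiner came the chromosome 10 block with the highest RRBS coverage, with 37.3, 106 and 76.7. With MethylMagnet the 9 members of the printed stretch had 92.9, 579 and 81.1, from a mean depth of at most 1.11 fragments. Over the whole chromosome 10 stretch of 71 members, MethylCap had 56.6, 250 and 95.1 and MethylMiner 29.1, 93.3 and 94.2. Over the chromosome 16 stretch of 68 members, MethylCap had 15.4, 104 and 7.08, with the line order of the RRBS levels, and MethylMiner had 8.58, 40.6 and 28.1. In PC3, where the RRBS level of both stretches was low and alike at 35.6% and 38.5%, MethylCap thus had 95.1 on chromosome 10 and 7.08 on chromosome 16.

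The 3 members of the mitochondrial copy had a depth of 0 in all 15 libraries. The 14 satellite members from chr16:33885208 to chr16:34192486 were near 0 as well, with a relative depth of at most 1.17. Ribosomal members lie between them and are not part of this value. Of these, the 6 members at chr16:33964013-33964063 had 0, 497 and 324 with MethylCollector, from a mean depth of 0, 0.83 and 1.83 fragments. They had 0, 0 and 60.8 with MethylMagnet and 147, 0 and 17.7 with MethylCollector Ultra. With MethylCap they had 25.1, 140 and 0, and with MethylMiner 1.35, 15.5 and 0. The chromosome 7 block near CICP8, the most methylated of the large blocks, had 183, 0 and 119 with MethylMagnet, 103.3, 35.8 and 55.9 with MethylCap and 16.1, 11.4 and 7.21 with MethylMiner. The mean depth behind its MethylMagnet values was 0.66, 0 and 1.63 fragments. The DUX4L26 block had 23.6, 38.02 and 14.6 with MethylCap and 3.85, 6.84 and 3.62 with MethylMiner. Its mean depth was 6.59, 2.03 and 0.97 fragments with MethylCap and 1.91, 1.25 and 0.53 with MethylMiner.

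Across the 559 members of a library, depth and RRBS level were at most weakly related, with Spearman coefficients between -0.26 and 0.08 in the 15 libraries. Members share blocks and reads, so no p is given. The comparison CpGs differed by methylation with MethylCap, with a relative depth of 10.5, 10.0 and 11.4 at CpGs with at least 80% methylation and of 0.56, 1.01 and 1.13 at those with at most 20%. Members with at most 20% methylation had 28.5, 54.2 and 32.5 with MethylCap, against the 35.2, 78.6 and 37.2 of members with at least 80%. With MethylMiner the comparison CpGs had 2.31, 3.06 and 3.19 at high and 2.19, 3.33 and 4.00 at low methylation.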

How the data were processed

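RRBS was done on 3 libraries and MBD-seq on 15, with 1 library per cell line (HCT15, DU145 and PC3) and, for MBD-seq, per kit. The deposited RRBS files give, for each CpG, the count of methylated reads and the total count of reads. The authors added up the strands and listed CpGs from a coverage of 6. The deposited MBD-seq files give a signal, namely the depth of fragments that mapped uniquely, with duplicates removed. Per the submitters' processing notes and the study's methods, read pairs were mapped with Bowtie to NCBI build 37 (hg19), and the depth was not scaled. How the RRBS reads were mapped, and where reads with several equally good places went, is not given in the sources used here.

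Members and lists were chosen with earlier results of these data known. Rows of the RRBS files not 2 bp long or not on a CG were dropped. Members at most 1000 bp apart were joined to blocks, and the blocks named are the 10 with the most members (3 blocks had 12 members, and the last of them by position is given as a tie), those with the highest coverage in each line, the 3 with the largest range between lines and the 3 with the highest MethylCap and MethylMiner depth, the last groups among blocks of at least 5 members. Genes were taken from GENCODE 44 on build 37. Ribosomal and mitochondrial copies were found with BLAST 2.17.0 (at least 80% identity over 80 bp for the transcript and 500 bp for the contig). The place of the 45S transcript on the contig was taken from the RefSeq annotation. As a check, the sequences of MIR3648 and RNA5-8SP2 were aligned to the contig, and both fell inside the transcript. Copies of 50 bases were counted exactly on both strands. No value in a test was at 0, so no pseudocount was used. One member had no count of copies because its 50 bases reach an N.

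Each kit was applied once to DNA of each line, so the labels pair the libraries by line, and kits were permuted within lines. The scripts, tested on simulated data, used numba 0.67.0, matplotlib 3.10.9, scipy 1.17.1, pandas 2.3.3, pysam 0.24.0 and numpy 2.4.6 under Python 3.11.15, and samtools 1.23.1. Alternatives were other coverage minima, gaps, differences, ways of averaging and reference depths, thinning to 20 reads, and each line, the MethylMiner libraries or a block left out. Leaving out the PMF1 block and keeping only members whose 50 bases occur once were added after seeing the data, as were sign flips by cell line.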

Additional observations from a re-analysis of the deposited data

Results flagged for a closer look

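A stretch of 165 CpGs at chr21:9825539-9827508, which resembles ribosomal DNA, is in no comparison above because the PC3 file lists none of its CpGs. It is described here because no comparison covers it. Its mean MBD-seq depth lay above the limit that a count of 0 allows in every library. In HCT15 and DU145 its mean RRBS level was 47.7% ± 19.8 and 52.6% ± 22.05 (SD over CpGs), with a median coverage of 3957 and 12893 reads. Its relative depth in HCT15, DU145 and PC3 was 8824, 19329 and 4958 with MethylMagnet, 4034, 7617 and 3240 with MethylCollector and 1556, 3366 and 1211 with MethylCollector Ultra. With MethylCap it was 339, 852 and 418, and with MethylMiner 159, 284 and 298. The mean depth behind these values ranged from 6.37 fragments (MethylCollector Ultra, DU145) to 94.7 (MethylCap, HCT15). PC3 thus had fragments on this stretch with all 5 kits. In each of the 15 libraries the relative depth was above that at the members. Why the PC3 file of RRBS lists no CpG here was not tested.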

How the results depend on the processing

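Of 132 values under alternatives, 79 were judged the same, 52 changed in size and 1 lost the threshold. Counts, mean levels and relative depths were judged by size alone. The shares of the kits and the log2 ratio were judged by their side of the threshold of 0.05, not by size. For the log2 ratio the sign was judged as well, and it never changed. A value judged the same can therefore differ much in size, as the share of 84.9% outside the MIR663AHG block that fell to 44.2%. The order of the kits did change, as given below. The log2 ratio of members to comparison CpGs, 3.30, had an exact permutation p of 0.25 with signs flipped by cell line, the smallest that 3 lines allow, and of at most 0.00195 under its other alternatives. The cause of each change was not tested beyond what the alternative itself removes. A coverage minimum of 200 or 1000 gave 870 or 231 members, and leaving out a line from the rule 588 to 1185. The mean levels in HCT15, DU145 and PC3 were 61.0%, 66.5% and 41.2% over summed reads, 62.5%, 73.6% and 47.6% with each block counted once, 63.1%, 72.2% and 47.5% at a minimum of 500, 64.8%, 75.5% and 49.96% outside the MIR663AHG block and 61.2%, 69.8% and 45.96% for members whose 50 bases occur once, so their order held. At 10 percentage points, the members with DU145 above HCT15, HCT15 above DU145, DU145 above PC3, PC3 above DU145, HCT15 above PC3 and PC3 above HCT15 numbered 179, 17, 373, 1, 292 and 4. At 30 points, 61 had DU145 above HCT15, 1 HCT15 above DU145 and 93 HCT15 above PC3. Thinned to 20 reads per CpG, 27 had HCT15 above DU145, 2 PC3 above DU145 and 10 PC3 above HCT15. Over all CpGs with coverage of at least 100, the 6 shares were 5.71%, 5.07%, 8.09%, 3.24%, 8.13% and 3.7996%.

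The mean relative depth with MethylMagnet, MethylCollector and MethylCollector Ultra was 142, 80.3 and 47.5 with each block counted once and 125, 133 and 61.8 outside the PMF1 block, where MethylCollector passed MethylMagnet. As a median over members it was 0, 19.4 and 23.9, and 16.0 and 7.27 with MethylCap and MethylMiner, which put MethylMagnet last. Divided by the mean depth at CpGs with RRBS coverage of at least 20, it was 21.2, 12.5, 7.94, 8.10 and 7.14 for the 5 kits, which were then far closer together and had MethylCap above MethylCollector Ultra. The share of the kits in the sum of squares lay between 55.8% and 95.4% for all members, 76.1% and 97.8% for the MIR663AHG block and 44.2% and 93.8% outside it, with permutation p of at most 0.00833, 0.025 and 0.0134. Without the replicate block, that is with kits permuted over all 15 libraries, the shares stay 88.9%, 93.7% and 84.9% by construction, with p = 1e-05, 1e-05 and 0.00015 (permutation, 100000 resamples, of which 1e-05 is the smallest they can give). In libraries of low yield few members had a fragment, 9.48% with MethylMagnet in DU145.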

Other observations

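Of the CpGs with at least 300 reads in HCT15 and DU145, 211 fell short in PC3, and 171 of these are not listed in the PC3 file at all. Short of the rule in HCT15 alone were 626 CpGs, and in DU145 alone 29. In the DU145 file, 17 rows with coverage of at least 300 were not a CG of 2 bp in build 37, in PC3 3 and in HCT15 0, and these rows were left out.

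Of the 28 members with at most 5% methylation in all 3 lines, 2 lie in the site CCGG, and of the 59 with at least 95%, 22 do. Over all members this site covered 15.0%.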
